A study of Hordeum vulgare with 6 samples.

Results

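A group of genes named as regulators of floral organs and meristems is described here across 3 WT and 3 *mads1* libraries of barley. The genes are *MADS5*, *MADS2*, *EMF2B*, *INT-M* and a gene annotated as a KNOTTED-like homeobox gene, called the 5 regulators below. The annotation of the KNOTTED-like gene does not bear out the name meristem regulator, as described below. The 5 are among the 26933 genes in the deposited table, taken by identifier. They were chosen by their differences in FPKM between *mads1* and WT in these same libraries, so their differences between genotypes are given as a description, with no p, and whether one passes the threshold used for all genes is no evidence of a difference. All 5 are also in the study's list of 605 genes that HvMADS1 bound in CUT&Tag, an assay of where on the genome a protein is bound, and that differed in *mads1*. RNA came from plants of cv. Golden Promise grown normally to Waddington stage W7.5, on a scale that ranks inflorescences by how far they have developed. WT plants carried an intact *HvMADS1*. The *mads1* plants were homozygous CRISPR-Cas9 knockouts of that gene, in a study that made 3 such lines, and the labels do not name the line that was sequenced. Each library was a pool of plants, dissected as lemma and awn according to the methods and labelled as spikelet. *HvMADS1* itself is not analysed here, and the genotype labels could not be checked on it.

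MADS-box proteins act in combinations that give each whorl of a flower its identity. B-class genes specify lodicules and stamens, and E-class (*SEPALLATA*) genes, to which *HvMADS1* belongs, act with the other classes in every whorl. Polycomb complexes keep developmental genes silent through histone methylation, AP2-like factors act in meristem and spikelet fate, and KNOTTED-like homeodomain proteins work as dimers with BEL1-like partners. The comparison asks how genes of these kinds stand in lemma and awn tissue that lacks HvMADS1, at a stage before the large differences in awn and lemma growth between the genotypes.

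Values are FPKM, the fragments of a gene scaled to its length and to the library, so levels can be set side by side between genes. The libraries summed to 939663 to 966119 FPKM in *mads1* and to 993575 to 994495 FPKM in WT, and the number of reads behind them is unknown. A log2 fold change is the *mads1* minus WT difference on log2(FPKM + 1), with its standard error from limma. The 17996 genes that reached 1 FPKM in 3 or more of the 6 libraries were tested, and their median log2 fold change was 0.05. Called genes are those with a Benjamini-Hochberg adjusted p under 0.05 that also differed 1.5-fold or more. In bulk tissue, fewer cells of a type and less RNA per cell cannot be told apart.

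Of these regulators, 4 were lower in *mads1* and 1, *INT-M*, was higher. The KNOTTED-like gene and *EMF2B* had the largest falls, to near 0 FPKM and to 19.3% of the WT mean, while *MADS5* and *MADS2* kept 50.4% and 58.5% of theirs. Among the 5, 4 were called lower, where 14.5% of all tested genes were, and 1 was called higher, against 6.6% of all tested genes. For all 5 the values of the genotypes did not overlap, which held for 55.9% of all tested genes. These counts follow from how the 5 were picked, and nothing is read from them. The KNOTTED-like gene entered the test through its WT libraries alone, so it had to differ.

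**Figure D1:**
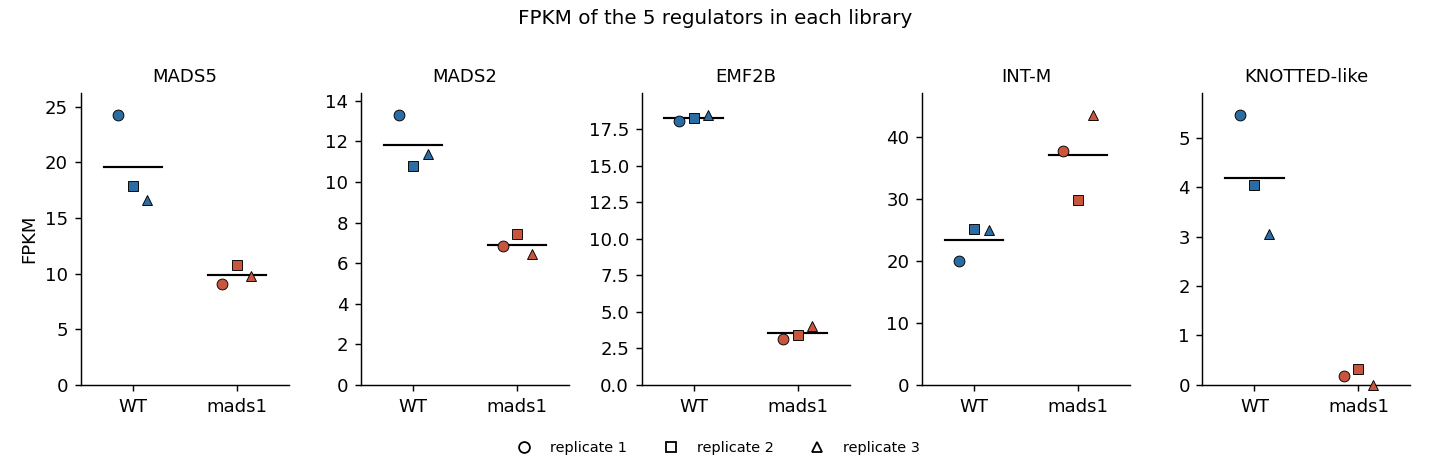
FPKM (linear axis from 0, one scale per gene) of the 5 regulators in the 3 WT and 3 *mads1* libraries, with a symbol for each replicate and a line at the mean of 3 where no library is listed at 0. The *mads1* points lie below the WT points for *MADS5*, *MADS2*, *EMF2B* and the KNOTTED-like gene, and above them for *INT-M*.

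*MADS5* (HORVU.MOREX.r3.7HG0654930, chromosome 7H) is an E-class gene, of the same *SEPALLATA* clade as *HvMADS1*. WT libraries held it at 24.28, 17.87 and 16.59 FPKM, and *mads1* libraries at 9.07, 10.73 and 9.80 FPKM. WT replicate 1 was the highest by a wide margin, and the lowest WT value was 1.55 times the highest *mads1* value. *mads1* held 50.4% of the WT mean, at 9.87 ± 0.832 against 19.6 ± 4.12 FPKM (SD, n = 3 each). The log2 fold change was -0.91 (standard error 0.14).

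*MADS2* (HORVU.MOREX.r3.3HG0307160, chromosome 3H) is named after a B-class gene of rice that acts in the lodicules, the small organs that swell to open the floret. It was at 13.32, 10.80 and 11.38 FPKM across the WT libraries, against 6.86, 7.44 and 6.45 FPKM in those of *mads1*. The genotypes did not overlap, and the nearest values were 1.45-fold apart. *mads1* held 58.5% of the WT mean, at 6.92 ± 0.497 against 11.8 ± 1.32 FPKM (SD, n = 3 each), or -0.69 on the log2 scale (standard error 0.11). A B-class gene was thus listed in all 6 libraries of a tissue described as lemma and awn. Organ identity genes of lodicules, stamens and carpels other than *MADS2* are not analysed here, and whether the share of such organs moved with the genotype was not tested. *HvDL*, the YABBY gene that the study located in lemma and awn, was at 80.58, 96.35 and 96.46 FPKM across the WT libraries, against 53.94, 49.81 and 65.71 FPKM in those of *mads1*. The study reports that HvMADS1 binds the *HvDL* promoter and activates it, and that *HvDL* also affects the carpel. Its values are therefore no measure of how much lemma and awn each library held.

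*EMF2B* (HORVU.MOREX.r3.2HG0095780, chromosome 2H) is annotated with the VEFS box of polycomb proteins, and its rice namesake is a subunit of the polycomb complex that methylates histones, required for normal flowering and floral organs. It was at 18.05, 18.28 and 18.48 FPKM across the WT libraries, against 3.16, 3.42 and 4.02 FPKM in those of *mads1*. The WT libraries were nearly identical, with an SD of 1.18% of their mean, where the median over tested genes detected in every WT library was 8.45%. The gap to *mads1* was wide, since the lowest WT value was 4.49 times the highest *mads1* value. Means were 18.3 ± 0.215 and 3.53 ± 0.441 FPKM (SD, n = 3 each), and the log2 fold change was -2.09 (standard error 0.11). Of all tested genes, 2.07% had a log2 fold change this low or lower, against 9.74% for *MADS5* and 12.9% for *MADS2*.

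*INT-M* (HORVU.MOREX.r3.5HG0525620, chromosome 5H), annotated as related to AP2.7, encodes an AP2-like factor that in barley keeps the inflorescence meristem indeterminate. It was at 19.92, 25.04 and 24.94 FPKM across the WT libraries, against 37.64, 29.73 and 43.54 FPKM in those of *mads1*. *mads1* replicate 2 lay closest to WT, at 1.19 times the highest WT value, the narrowest gap among the 5 genes. *mads1* held 159% of the WT mean, at 37.0 ± 6.93 against 23.3 ± 2.93 FPKM (SD, n = 3 each). The log2 fold change of 0.63 (standard error 0.15) was under the limit of 1.5-fold without *mads1* replicate 3 (0.51) or without WT replicate 1 (0.53), and was 0.78 without *mads1* replicate 2.

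The KNOTTED-like gene (HORVU.MOREX.r3.4HG0412370, chromosome 4H) carries the annotation KNOTTED-like homeobox of Arabidopsis thaliana 7. The Arabidopsis gene of that name belongs to class II of the family and is known for its part in secondary cell walls, whereas meristem identity is the known role of class I genes. Its annotation therefore does not bear out the name meristem regulator. WT libraries listed it at 5.47, 4.04 and 3.05 FPKM, and *mads1* libraries at 0.18, 0.33 and 0 FPKM. Every *mads1* value was far below every WT value, with 9.24-fold between the nearest ones. At values this low the log2 fold change depends on the pseudocount, at -2.13 (standard error 0.21) with 1 FPKM, -2.80 with 0.5 and -4.19 with 0.1.

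**Figure D2:**
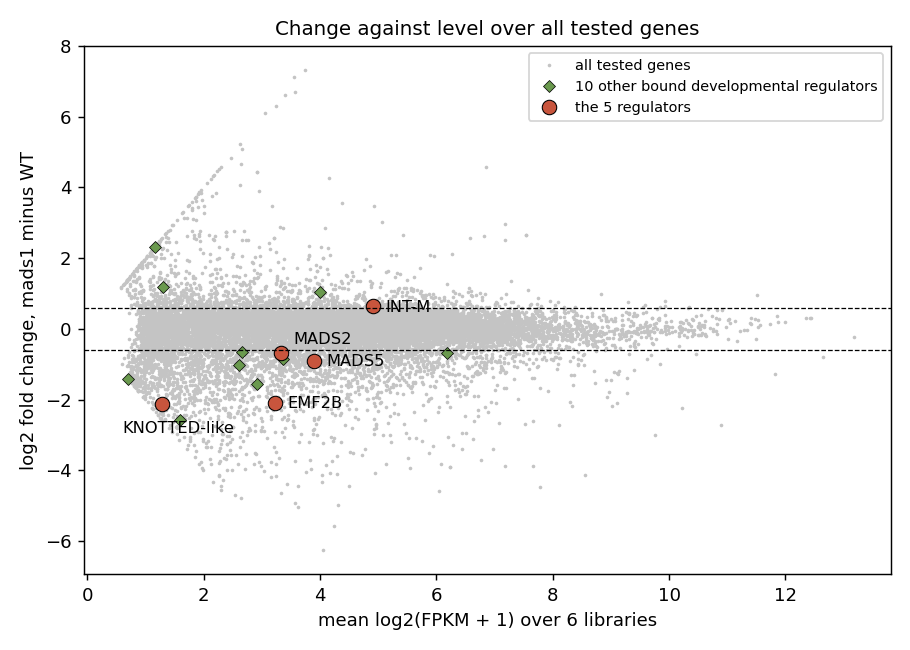
Log2 fold change (*mads1* minus WT) against mean log2(FPKM + 1) over 6 libraries for the 17996 tested genes (grey), 10 other bound developmental regulators (green) and the 5 regulators (red), with dashed lines at a 1.5-fold change. *INT-M* has the highest mean level of the 5 and lies just above the upper line, and the KNOTTED-like gene lies near the edge set by low values.

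The order of the 5 levels differed between the genotypes, which restates the differences by which the genes were chosen. All 3 *mads1* libraries ranked *INT-M* first, followed by *MADS5*, *MADS2*, *EMF2B* and the KNOTTED-like gene. In WT replicates 2 and 3 the order was *INT-M*, *EMF2B*, *MADS5*, *MADS2* and the KNOTTED-like gene. WT replicate 1 put *MADS5* first, then *INT-M* and *EMF2B*. *INT-M*, *EMF2B* and *MADS5* were close in WT, and their order there is not fixed beyond the spread between libraries. *MADS2* was the fourth and the KNOTTED-like gene the fifth in each WT library.

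Ratios between genes of one library do not depend on how the library was scaled. *MADS5* was 1.82, 1.65 and 1.46 times *MADS2* in WT and 1.32, 1.44 and 1.52 times *MADS2* in *mads1*. These ranges overlap, with means of 1.64 ± 0.183 and 1.43 ± 0.0994 (SD, n = 3 each), while both genes were lower. *EMF2B* was 1.36, 1.69 and 1.62 times *MADS2* in WT but 0.461, 0.46 and 0.623 times *MADS2* in *mads1*. The polycomb gene was thus above *MADS2* in each WT library and below it in each *mads1* library. *INT-M* was 1.10, 1.37 and 1.35 times *EMF2B* in WT and 11.9, 8.69 and 10.8 times *EMF2B* in *mads1*. Of the 6 ratios among the 4 better expressed genes, only that of *MADS5* to *MADS2* overlapped between the genotypes. Those of *INT-M* had to separate, since it was higher in each *mads1* library while the other genes were lower. The genes were chosen by these differences, so nothing is read from how many ratios were apart.

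**Figure D3:**
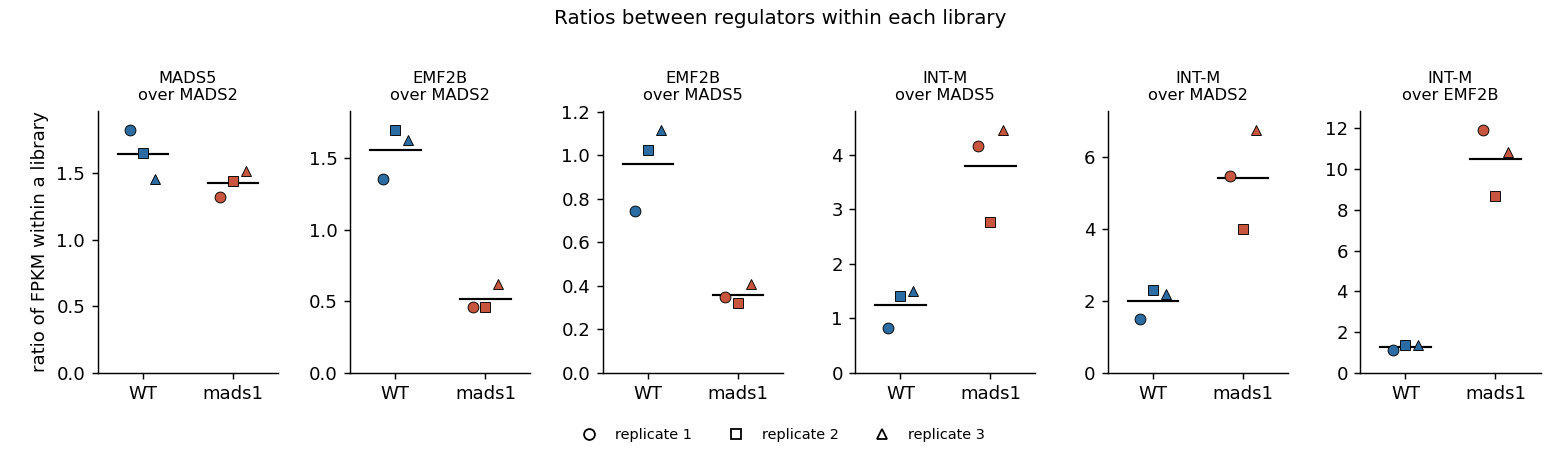
Ratio of the FPKM of one regulator to that of another within each library (linear axes from 0, one scale per ratio), with a symbol for each replicate and a line at the mean of 3. The WT and *mads1* points overlap for *MADS5* over *MADS2* and are apart in the 5 other panels. They are the farthest apart for *INT-M* over *EMF2B*, at 1.27 ± 0.148 in WT and 10.5 ± 1.64 in *mads1* (SD, n = 3 each). The panels with *INT-M* had to be apart, since it was higher in *mads1* and the other genes lower.

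Libraries of one genotype did not vary alike for the 5 genes. WT replicate 1 was above the WT mean of log2(FPKM + 1) by 0.35 for the KNOTTED-like gene, 0.32 for *MADS5* and 0.16 for *MADS2*, and it deviated by -0.21 for *INT-M* and -0.02 for *EMF2B*. Without WT replicate 1 the log2 fold changes were -1.96 for the KNOTTED-like gene, -0.75 for *MADS5*, -0.61 for *MADS2* and -2.10 for *EMF2B*. The directions are the same, and the values for *MADS5* and *MADS2* are closer to the limit of 1.5-fold. In *mads1*, replicate 2 was the highest for *MADS5*, *MADS2* and the KNOTTED-like gene and the lowest for *INT-M*. The SD within genotypes, pooled over both on the log2 scale, was 0.0990 for *EMF2B* and 0.121 for *MADS2*, below the median of 0.135 over all tested genes. It was 0.211 for *MADS5*, 0.23 for *INT-M* and 0.28 for the KNOTTED-like gene.

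Since KNOTTED-like proteins bind DNA with BEL1-like partners, the genes of both kinds among the 605 bound and changed genes were read together. Besides the KNOTTED-like gene above there are 6 of them. All 7 were called lower in *mads1*, where 14.5% of all tested genes were. The study chose these genes on the same libraries, and over its whole list 450 of the 541 genes tested were called lower and 64 higher, so their direction is not independent evidence. A second KNOTTED-like gene (HORVU.MOREX.r3.4HG0339120) was at 6.52, 5.30 and 9.23 FPKM across the WT libraries, against 4.90, 3.25 and 4.09 FPKM in those of *mads1*, or -0.64 on the log2 scale (standard error 0.20). This difference was the least secure of the 7, with 5.30 FPKM the lowest WT value and 4.90 FPKM the highest in *mads1*. Its call was lost in 4 of the 6 fits that left out a library, those without *mads1* replicate 2, *mads1* replicate 3, WT replicate 1 or WT replicate 3.

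The 5 BEL1-like genes ranged from a moderate decrease to no listed expression. BEL1-like homeodomain 2 (HORVU.MOREX.r3.1HG0052320) was listed at 2.32, 1.33 and 1.45 FPKM in WT and at 0 in each *mads1* library. One of the genes annotated as BEL1-like homeodomain 6 (HORVU.MOREX.r3.4HG0402730) was at 10.31, 4.53 and 5.59 FPKM across the WT libraries, against 0.09, 0.35 and 0.29 FPKM in those of *mads1*. With the first KNOTTED-like gene, 3 of the 7 were thus under 1 FPKM in every *mads1* library, and WT replicate 1 was the highest library for each of the 3. These 3 entered the test through their WT libraries alone, so they had to be lower in *mads1*. BEL1-like homeodomain 7 (HORVU.MOREX.r3.4HG0350220) had means of 12.1 ± 1.92 FPKM for WT and 3.44 ± 0.572 FPKM for *mads1* (SD, n = 3 each). BEL1-like homeodomain 4 (HORVU.MOREX.r3.4HG0339810) had a log2 fold change of -1.03 (standard error 0.14), and the other BEL1-like homeodomain 6 gene (HORVU.MOREX.r3.5HG0420480) one of -0.86 (standard error 0.10). The latter was the steadiest of the 5, with WT values of 13.91, 12.94 and 12.04 FPKM against 6.34, 6.81 and 6.97 FPKM in *mads1*.

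**Figure D4:**
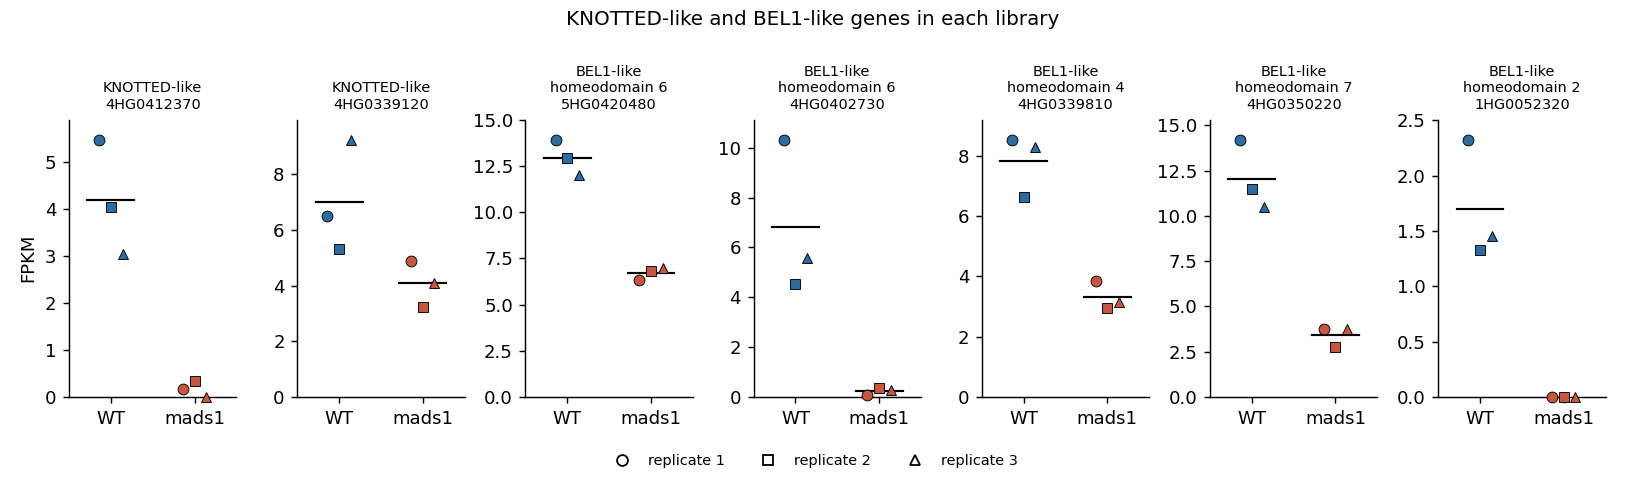
FPKM (linear axis from 0, one scale per gene) of the 2 KNOTTED-like and 5 BEL1-like genes of the bound and changed list in each library, with a symbol for each replicate and a line at the mean of 3 where no library is listed at 0. All 7 are lower in *mads1*, and the WT and *mads1* points are nearest for the KNOTTED-like gene 4HG0339120.

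The 10 other bound developmental regulators were picked from the bound and changed list by annotation. The rule was a family or a known partner shared with a regulator above. The lateral organ boundaries domain genes and *HvDL* share no family with those regulators, and no partner is given for them here. The 10 are not every developmental regulator of that list, and *HvSHI*, a target that the study names, is not among them. Some of the 10 were higher in *mads1*, as *INT-M* was. Both genes of the lateral organ boundaries domain family, known for marking the borders between organs and meristems, were higher. HORVU.MOREX.r3.3HG0306540 was at 9.29, 10.13 and 11.11 FPKM across the WT libraries, against 23.07, 21.12 and 21.80 FPKM in those of *mads1*. HORVU.MOREX.r3.5HG0465420 was at 0.62, 0.48 and 0.80 FPKM across the WT libraries, against 3.37, 1.66 and 3.42 FPKM in those of *mads1*, and *mads1* replicate 2 was the closest to WT. The gene annotated as TOPLESS-related 2, of a family of co-repressors, was listed at 0 in each WT library and at 3.83, 4.02 and 4.20 FPKM in *mads1* (HORVU.MOREX.r3.3HG0314030). The older identifier that the study pairs with it lies on another chromosome, so this annotation is uncertain. *HvDL* was lower, at -0.69 on the log2 scale (standard error 0.12). Over these 10 genes, 7 were called lower and 3 higher, where 14.5% and 6.6% of all tested genes were. Their median log2 fold change was -0.77, beside -1.14 over the 541 tested genes of the list they were taken from and 0.05 over all tested genes. Of the 10, 4 entered the test through 1 genotype alone. BEL1-like homeodomain 2 and HORVU.MOREX.r3.4HG0402730 did so through WT and had to be lower in *mads1*. HORVU.MOREX.r3.5HG0465420 and the gene annotated as TOPLESS-related 2 did so through *mads1* and had to be higher there.

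The genes whose pattern over the 6 libraries was most like that of each regulator were sought among the 536 other tested genes of the bound and changed list, by Pearson's r of log2(FPKM + 1). These correlations describe 6 points that share the genotype difference, and genes are not independent replicates. For *INT-M* the nearest were a RING/U-box gene (HORVU.MOREX.r3.5HG0523040, r = 0.999) and a tetratricopeptide repeat gene (HORVU.MOREX.r3.4HG0395270, r = 0.989). The RING/U-box gene was at 30.39, 37.02 and 38.17 FPKM across the WT libraries, against 56.19, 45.49 and 65.65 FPKM in those of *mads1*, with the lowest and the highest library of each genotype nearly as in *INT-M*. *MADS2* was most like a phospholipase A2 gene (HORVU.MOREX.r3.4HG0390450, r = 0.999) and H(+)-ATPase 2 (HORVU.MOREX.r3.2HG0202670, r = 0.999), which share the high value of WT replicate 1. *MADS5* was most like an alpha/beta-hydrolase gene (HORVU.MOREX.r3.3HG0234240, r = 0.998) and laccase 12 (HORVU.MOREX.r3.5HG0465270, r = 0.997). The nearest to *EMF2B* were a Rossmann-fold gene (HORVU.MOREX.r3.3HG0274610, r = 0.999) and a WSD1-like acyltransferase gene (HORVU.MOREX.r3.5HG0499310, r = 0.998). A SAUR-like gene (HORVU.MOREX.r3.5HG0502520) and a lipid-sensing domain gene (HORVU.MOREX.r3.3HG0254810) were nearest to the KNOTTED-like gene, at r = 0.998 each. An r above 0.95 was reached by 215 to 347 of the 536 genes for the 4 lower regulators, so likeness this close is common for them. It was reached by 19 for *INT-M*. Of the 541 tested genes of the list, 450 were called lower and 64 higher, *INT-M* among the latter. Far fewer genes thus shared its direction, and the 2 kinds of count cannot be compared directly.

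The 5 regulators lie on 5 different chromosomes. Identifiers number the genes along each chromosome, and the 2 listed genes nearest to each regulator on either side were taken as its neighbours, a choice made after the regulators' values were known. Of these 20 genes, 13 were tested and 2 (15.4%) were called, where 21.1% of all tested genes were. None of the 20 is in the bound and changed list, which holds 605 genes beside the 26933 of the deposited table. With a list this small, nothing is read from that. The 2 called moved the opposite way to the regulator beside them. Next to *INT-M*, HORVU.MOREX.r3.5HG0525590 was at 46.47, 48.55 and 46.87 FPKM across the WT libraries, against 30.83, 22.67 and 25.74 FPKM in those of *mads1*. It was lower in 3 of 3 *mads1* libraries, by a log2 fold change of -0.83 with a standard error of 0.11, and limma gave an adjusted p of 0.000569. Near *MADS2*, HORVU.MOREX.r3.3HG0307200 was at 2.43, 1.15 and 0.69 FPKM across the WT libraries, against 4.31, 3.00 and 5.52 FPKM in those of *mads1*, higher in 3 of 3. Here the log2 fold change was 1.16 with a standard error of 0.28 and limma's adjusted p was 0.0118. The 4 neighbours of the KNOTTED-like gene had log2 fold changes between -0.02 and 0.13 and none was called, with adjusted p of 0.121 to 0.823 from limma.

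**Figure D5:**
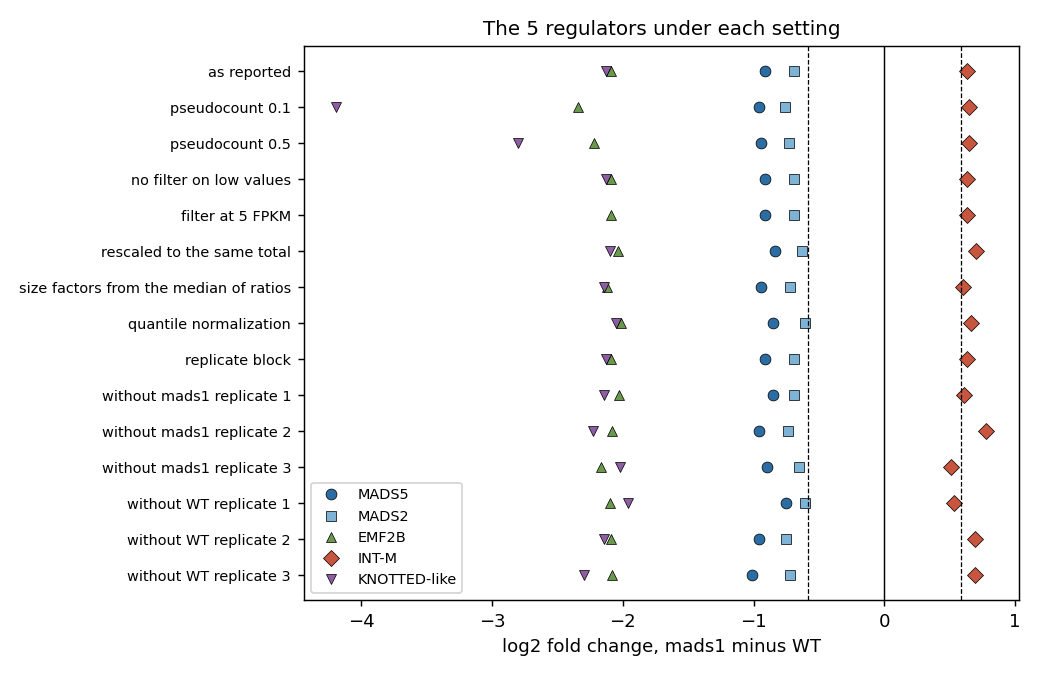
Log2 fold change (*mads1* minus WT) of the 5 regulators as reported and under each other setting, with dashed lines at a 1.5-fold change. No gene changes side of 0, *INT-M* falls inside the upper line without *mads1* replicate 3 (0.51) or WT replicate 1 (0.53), and the KNOTTED-like gene reaches -4.19 with a pseudocount of 0.1 and has no value with the filter at 5 FPKM.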

How the data were processed

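Libraries from 3 WT and 3 *mads1* samples were sequenced for the study. The authors trimmed the reads (Trimmomatic in the submitters' processing notes), aligned them to a barley reference, estimated FPKM with RSEM 1.3.3 and deposited these values. Aligner and genome version are not given in the sources used here, and the identifiers are those of Morex version 3. The deposited FPKM hold no counts, so the depth is unknown and the authors' DESeq2 test was not repeated. Replicates are separate pools of plants.

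log2(FPKM + 1) was fitted with limma 3.58.1 in R 4.3.3 (lmFit, eBayes with a trend) for genes at 1 FPKM or more in at least 3 of 6 libraries, with Benjamini-Hochberg adjustment over all 17996. The fit was tested on simulated data. Members and lists were chosen with earlier results of these data known. Named genes are the 5 regulators, 10 listed developmental regulators, the 2 most correlated annotated genes for each regulator and, chosen after their values were seen, 2 neighbours. Annotations are those of the study. Families by product name were planned, but product names were paired with these identifiers only for the 605 genes of the study's list, so they were not run. Alternatives were other pseudocounts, filters, scalings, no trend, a replicate block, the adjusted p alone and each library left out.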

Additional observations from a re-analysis of the deposited data

How the results depend on the processing

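Each of the 5 regulators kept its direction under every alternative that gave a value for it. *EMF2B* moved beyond its spread with pseudocounts of 0.5 (-2.22) and 0.1 (-2.34), and the KNOTTED-like gene did so too (-2.80 and -4.19), by the construction of the log scale. The filter at 5 FPKM removes the latter and leaves 6 of the 10 other developmental regulators and 1 neighbour called. Without the limit on fold change 7779 genes were called, against 3794 with it, and 5 neighbours. Leaving out a library gave -1.01 to -0.75 for *MADS5*, -0.75 to -0.61 for *MADS2*, -2.17 to -2.03 for *EMF2B*, 0.51 to 0.78 for *INT-M* and -2.30 to -1.96 for the KNOTTED-like gene. The second KNOTTED-like gene also lost its call without a filter on low values and with quantile normalization, and the cause was not tested. Same-numbered samples did not consistently deviate together, with r across genes of -0.069, -0.28 and 0.199 for replicates 1, 2 and 3. With the replicate number as a block *INT-M* stayed at 0.63. The planned counts over families named by product were not run. The depth is unknown, so no limit was set for genes listed at 0.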
